A study of Homo sapiens with 18 samples.

Results

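A253 is an established human carcinoma line from the submandibular salivary gland, and SCC25 and CAL27 are established squamous carcinoma lines from the tongue. The comparison described here set 3 A253 control RNA libraries against 2 SCC25 control and 2 CAL27 control libraries, 7 of the 18 samples of a study of the transcription factor EHF in head and neck squamous cell carcinoma. The libraries were chosen by their labels, and the comparison was chosen with earlier results of these data known. All 7 came from cells labelled as controls and grown in regular medium. SCC25 was kept in DMEM/F12, CAL27 in DMEM and A253 in a McCoy's 5A formulation, each with serum and antibiotics. The A253 and SCC25 controls belong to an experiment in which doxycycline induced EHF in the overexpressing cells, and the deposited count table heads the CAL27 control columns as short hairpin controls. The labels do not say whether the A253 and SCC25 controls carried an empty vector or received doxycycline. Whether replicates were separate cultures is also not stated, so p-values measure only the spread between libraries, which may be technical.

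A single salivary line and 2 tongue lines were available, and each line was deposited in a count table of its own. Cell line, anatomical site, medium, control type and any batch therefore cannot be told apart in the values that follow. A difference is described as one between these lines and not between the glands or tissues they came from. A gene was called higher or lower in A253 only where it differed at least 2-fold, with an adjusted p under 0.05, in the same direction from SCC25 and from CAL27 separately (edgeR quasi-likelihood test, Benjamini-Hochberg adjustment over all genes tested). Levels are counts-per-million (CPM) on one scale for the 7 libraries. Differences are log2 of A253 over the other line, with the standard error (SE).

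EHF belongs to the epithelial branch of the ETS family of transcription factors and is expressed in many simple and stratified epithelia. Salivary glands are built from acinar cells that secrete saliva proteins, duct cells that modify its salt content, and contractile myoepithelial cells. Duct and myoepithelial cells share basal keratins with the basal layer of the squamous lining of the tongue, and carcinomas of either site can take on a squamous character. Squamous carcinoma cells in culture often express cytokines, chemokines and antimicrobial proteins of the mucosal barrier without further stimulation.

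The 7 libraries held 9018351 to 19962159 counts over genes. Libraries of one line correlated at 0.9926 to 0.9946 (Pearson, across genes, log2 CPM, 5 pairs), pairs of A253 with a tongue library at 0.8316 to 0.8565 (12 pairs), and SCC25 with CAL27 libraries at 0.8667 to 0.8712 (4 pairs). These correlations are across genes, which are not independent replicates. No 2 libraries agreed within counting noise. PTPRC, the pan-leukocyte marker, stood at 0.0875 to 0.219 CPM in A253 and at 0.0638 to 0.311 CPM in the tongue libraries, too low to be tested. Of 10 fibroblast markers tested 4 were lower in A253 and 1 higher. COL1A1 stood at 1.93 to 3.51 CPM in A253 and 2.33 to 5.02 CPM in the tongue lines, and LUM at 0.0475 CPM in A253, 56.9 in SCC25 and 3.30 in CAL27.

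Of 15554 genes tested, 1430 were higher in A253 than in both tongue lines (9.19%) and 1044 were lower (6.71%). The share of each gene list below is to be read beside these shares of all genes. A list member entered the test where any line had enough counts, so list shares describe the members tested and not the lists. A further 349 genes (2.24%) stood above one tongue line and below the other. Against the mean of the tongue lines, 11477 genes (73.8%) passed an adjusted p of 0.05 with no minimum fold, 5722 higher and 5755 lower. That last count rests on the small spread between libraries of one line, and it was 5508 when the 4 tongue libraries were fitted as 1 group. By number of genes, A253 was about as far from each tongue line as the tongue lines were from each other. At 2-fold, 2598 genes were above and 2655 below SCC25, and 2897 above and 2149 below CAL27. Between the tongue lines, 2952 genes were higher and 2163 lower in SCC25. Read the same way for the other lines, 1407 genes were higher in SCC25 than in both other lines (9.05%) and 961 lower (6.18%), while 818 were higher in CAL27 (5.26%) and 1437 lower (9.24%). The 1430 and 1044 genes called in A253 thus came close to the 1407 and 961 called in SCC25 by the same rule.

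EHF itself was lowest in A253. The comparison was chosen with A253 known as a line low in EHF, so its EHF values describe that choice and do not test it. The EHF level was 82.3, 89.1 and 80.7 CPM in the 3 A253 libraries, 476 and 433 CPM in SCC25 and 969 and 1018 CPM in CAL27. The 3 lines did not overlap. The difference was -2.43 (SE 0.068, adjusted p = 2.8e-18, edgeR) against SCC25 and -3.56 (SE 0.069, adjusted p = 1.06e-20) against CAL27, and the tongue lines also differed from each other by -1.13 for SCC25 against CAL27. Of 22 ETS family genes tested, 4 were lower in A253 (18.2%, against 6.71% of all genes) and none higher: EHF, ELK3, ETV6 and ETV1. The share includes EHF, whose low level was part of the choice. ETV1, of the PEA3 subfamily, had no count in the 3 A253 libraries, 165 in SCC25 and 52 in CAL27, which puts it at least 87.0-fold and 29.1-fold lower (bound at 3 counts over the A253 group). ELF3, the other ETS factor best known from epithelium, stood at 43.9 ± 3.87 CPM (SD, n = 3) in A253, 8.14 ± 0.574 (n = 2) in SCC25 and 39.0 ± 3.40 (n = 2) in CAL27, and so was not called. ETS1 was also not called, at 99.4 CPM in A253 against 68.8 and 21.4 CPM. ERG lay between the tongue lines, 17 genes were not called, and the family's median difference was -0.29 beside -0.006 for all genes.

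The A253 controls carried a basal squamous keratinocyte profile, as both tongue lines did. KRT5, the keratin of basal squamous, duct and myoepithelial cells, read 6953, 6733 and 7106 CPM in A253, 6702 and 7027 in SCC25 and 4441 and 4740 in CAL27. A253 overlapped SCC25 for this gene, with a difference of 0.01 (SE 0.075). TP63, the master regulator of stratified epithelium, read 452, 541 and 476 CPM in A253, 595 and 561 in SCC25 and 341 and 354 in CAL27. KRT14, the partner of KRT5, lay between the tongue lines, at 3043 to 3520 CPM against 5014 and 5242 in SCC25 and 698 and 790 in CAL27. Of 36 basal squamous keratins and adhesion genes, 1 was called higher in A253 (2.78%) and 2 lower (5.56%), both shares below those of all genes. The higher one was DST, which encodes the hemidesmosomal linker dystonin, at 1630 ± 153 CPM against 611 ± 42.9 and 802 ± 7.66. Its difference from CAL27, 1.02, was just over the 2-fold minimum, and it was not called without the second A253 library. The lower ones were KRT6B, a keratin of activated epithelium (2.02 ± 0.229 CPM in A253, 211 and 20.7 CPM in the tongue lines), and LAMB3, a chain of laminin-332 (128 ± 9.35 against 468 and 546 CPM).

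General epithelial markers were not called in either direction. EPCAM was at 151 ± 8.23 CPM in A253, 141 ± 1.42 in SCC25 and 212 ± 11.4 in CAL27, and CDH1, which encodes E-cadherin, at 383 ± 30.9, 216 ± 9.14 and 264 ± 11.2. Among 39 epithelial junction genes, 1 was higher (2.56%, against 9.19% of all genes) and 4 lower (10.3%, against 6.71%). Of 9 claudins of tight junctions tested, CLDN7 was higher, CLDN1 and CLDN16 were lower and 6 were not called. CLDN7 read 80.7, 73.0 and 80.8 CPM in A253, 28.8 and 26.3 in SCC25 and 10.5 and 11.2 in CAL27. CLDN1 read 24.9, 26.6 and 27.5 CPM in A253, 178 and 136 in SCC25 and 459 and 523 in CAL27.

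Of the squamous and epithelial lineage factors, 4 of 38 were higher in A253 (10.5%) and 2 lower (5.26%). Both shares were close to the 9.19% and 6.71% of all genes. SOX2, a factor of foregut and basal epithelium often amplified in squamous carcinoma, was at 48.0, 43.5 and 45.3 CPM in A253, 15.1 and 12.6 CPM in SCC25 and 3.90 and 4.25 CPM in CAL27. The A253 libraries stood above every tongue library, with differences of 1.72 (SE 0.098, adjusted p = 7.03e-13, edgeR) and 3.46 (SE 0.123, adjusted p = 2.5e-16). BARX2, RORA and NKX2-3 were the other factors called higher. ZNF750, an activator of late keratinocyte differentiation downstream of TP63, was lower at 0.656 CPM against 11.6 and 1.84, as was the epithelial splicing factor ESRP2 (25.1 CPM against 68.7 and 56.5).

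Genes of late squamous differentiation went both ways. Of 51 suprabasal and cornified envelope genes tested, 7 were higher (13.7%, against 9.19% of all genes) and 10 lower (19.6%, against 6.71%). The median difference was 0.19. The largest positive difference was that of CALML5, a calmodulin-like protein of the upper epidermis, at 48.1, 45.9 and 49.0 CPM in A253 against 1 count in both SCC25 libraries together and 8 in CAL27. Its relative CALML3 showed the reverse, with 1 count over the 3 A253 libraries, 51.2 and 49.9 CPM in SCC25 and 24.0 and 25.5 CPM in CAL27. KLK5, a protease that starts the desquamation cascade, was at 0.349 ± 0.111 CPM in A253, 237 ± 13 in SCC25 and 58.4 ± 3.13 in CAL27. The neighbouring serpins SERPINB3 and SERPINB4, which inhibit cysteine and serine proteases, were lower together at 2.98 and 0.596 CPM in A253, 121 and 33.4 in SCC25 and 39.8 and 25.2 in CAL27. They are near-identical copies whose reads the counting could have split between them. Tested against 2-fold itself (glmTreat) the list held 1 higher call, and without 1 library 6 to 9.

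**Figure D1:**
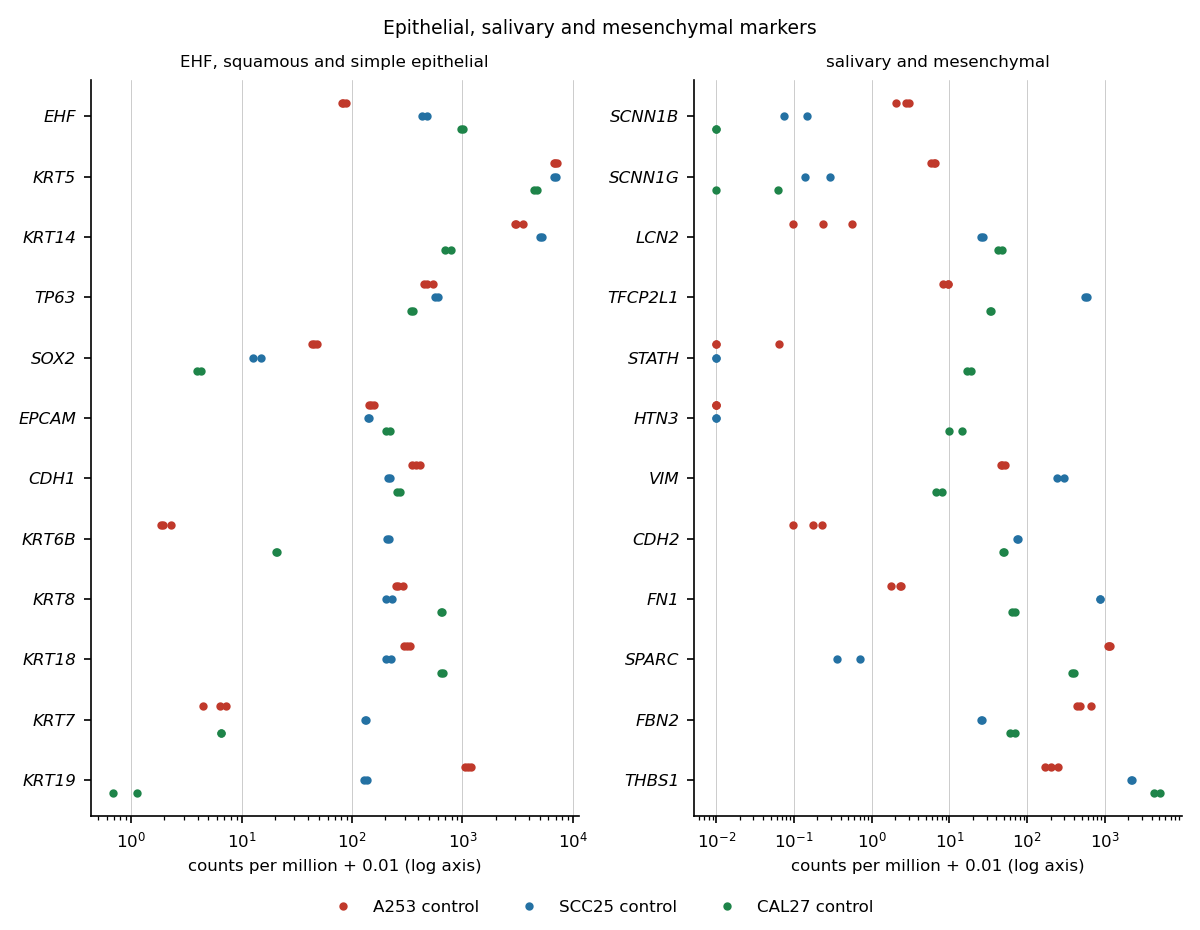
CPM plus 0.01 (log axis) of EHF and of squamous, simple epithelial, salivary and mesenchymal markers in each control library, 1 point per library and 1 colour per line. EHF, KRT6B, CDH2 and FN1 are lowest in all 3 A253 libraries, KRT19 and SOX2 highest, and KRT5 and TP63 lie close together in the 3 lines.

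Genes of salivary secretion were not higher in A253 than in the tongue lines. Of 40 acinar and secretory genes listed, 15 had enough counts in some line to be tested. None was higher in A253 and 1 was lower (6.67%), CRISP3, with no count in A253, 7 in SCC25 and 23 in CAL27. Among those tested, 13 were higher in CAL27 than in both other lines. STATH, which encodes statherin, had 1 count over the 3 A253 libraries, none in SCC25 and 491 in CAL27 (18.9 and 16.6 CPM). HTN3, a histatin gene, had none in A253 or SCC25 and 322 counts in CAL27. A member entered this test through the line where it was high, so these counts describe the 15 genes and not the list. The list's median of -3.65 carries the same limit, and was -2.50 with every group total set to at least 3 counts. In A253, the line of salivary origin, 9 of these 15 genes had no count, beside 8 in SCC25 and 0 in CAL27.

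Duct genes gave a mixed picture. Of 18 salivary duct and simple epithelial genes, 3 were higher in A253 (16.7%, against 9.19% of all genes) and 4 lower (22.2%, against 6.71%). KRT19, a keratin of simple and duct epithelium, had the highest level of those called, at 1123, 1057 and 1191 CPM in A253, 128 and 136 in SCC25 and 1.11 and 0.674 in CAL27. The A253 libraries stood clear of both lines, by 3.09 (SE 0.079, adjusted p = 5.62e-19, edgeR) and 10.41 (SE 0.141, adjusted p = 4.95e-23). SCNN1B and SCNN1G, which encode the beta and gamma subunits of the epithelial sodium channel of salt-absorbing ducts, were higher at low levels. SCNN1G had 297 counts in A253, 6 in SCC25 and 1 in CAL27. SCNN1B had 122, 3 and 0. The alpha subunit SCNN1A lay between the tongue lines, at 22.5 CPM against 51.1 and 9.24. Against these, TFCP2L1, a duct transcription factor, read 9.63, 9.71 and 8.23 CPM in A253, 580 and 554 in SCC25 and 33.3 and 34.1 in CAL27. LCN2, a secreted iron-binding defence protein, was at 0.287 ± 0.237 CPM in A253, 26.0 ± 0.917 in SCC25 and 44.8 ± 2.95 in CAL27, and the immunoglobulin transporter PIGR and KRT23 were also lower. The duct keratin KRT7 was at 6.04, 132 and 6.50 CPM, and KRT8 and KRT18 lay between the tongue lines.

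Of 10 myoepithelial markers tested, 1 was higher and 1 lower (10.0% each). The higher one was OXTR, the oxytocin receptor, at 27.7, 31.0 and 24.3 CPM against 0.957 and 1.18 in SCC25 and 4.79 and 4.72 in CAL27. The lower one was TAGLN, a smooth muscle actin-binding protein, at 0.710 CPM against 16.2 and 2.09. ACTA2, the smooth muscle actin that defines myoepithelial cells, was at 1.00 CPM in A253, 7.24 in SCC25 and 0.882 in CAL27 and was not called. Of 12 mucin and goblet genes tested of 31 listed, MUC12 and AGR2 were higher (16.7%) and GCNT3 lower (8.33%). MUC12 entered the test through A253 alone, with 55 counts there and 1 in each tongue line. The shares therefore describe the 12 genes and not the list. GCNT3, a mucin-type glycan branching enzyme, had no count in A253 and stood at 96.4 CPM in SCC25 and 0.853 in CAL27.

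Cytokine, chemokine and host defence genes were the list with the largest share of low calls in A253. Of 47 tested, 30 were lower in A253 than in both tongue lines (63.8%, against 6.71% of all genes) and 1 was higher (2.13%). The list held 55 genes and was chosen with earlier results of these data known. Members without a count in A253, such as CXCL11, entered the test through the tongue lines alone. The shares therefore describe the 47 genes and not the list. The median difference from the tongue mean was -3.33, or -3.21 with every group total set to at least 3 counts, beside -0.006 over all genes. For the same list, 3 genes were lowest in SCC25 and 3 in CAL27. EHF was low in the same libraries, and its part in these differences was not tested by this comparison.

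The interleukin 1 ligands were among the most abundant of the 30. IL1B read 10.3, 12.1 and 14.0 CPM in A253, 119 and 132 in SCC25 and 156 and 166 in CAL27. IL1A read 3.64, 4.55 and 4.73 CPM in A253, 162 and 195 in SCC25 and 105 and 116 in CAL27. In both genes each A253 library was below each tongue library by a wide margin. IL1A differed by -5.39 (SE 0.107, adjusted p = 8.21e-19, edgeR) and -4.70 (SE 0.109, adjusted p = 1.26e-17) from SCC25 and CAL27. TNF, the other early cytokine of this response, had 2 counts in the 3 A253 libraries against 73 in SCC25 and 206 in CAL27. The growth and colony-stimulating factors CSF1, CSF2, CSF3 and LIF were lower too.

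Of 14 chemokines tested, 6 were lower, 1 was higher, 1 lay between the tongue lines and 6 were not called. CCL20, which attracts CCR6-bearing lymphocytes and dendritic cells, read 0.224, 0.110 and 0.263 CPM in A253, 14.2 and 16.8 in SCC25 and 9.58 and 13.1 in CAL27. CXCL11, an interferon-induced ligand of CXCR3, had no count in A253 and 63.2 and 66.1 CPM in SCC25 and 6.35 and 7.72 in CAL27. IL8, the neutrophil chemokine, was at 11.3 ± 1.24 CPM in A253, 43.1 ± 1.61 in SCC25 and 101 ± 11.2 in CAL27. CXCL1, a neighbour of IL8 with the same receptor, read 72.2, 70.1 and 71.3 CPM in A253, within the range of the tongue libraries (61.7 to 78.8 CPM). CCL28, a mucosal chemokine, was the only gene of the list called higher, at 17.2, 12.6 and 13 CPM against 4.02 and 3.55 in SCC25 and 6.13 and 6.53 in CAL27, and that call was lost when tested against 2-fold itself.

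Feedback genes of the NF-kB pathway were lower in the same libraries. BIRC3, an apoptosis inhibitor induced by NF-kB, was at 7.0, 6.69 and 7.79 CPM in A253, 237 and 227 in SCC25 and 78.1 and 88.5 in CAL27. TNFAIP3, which encodes the inhibitor A20, was at 21.5, 26.6 and 23.3 CPM against 113 and 107, and 153 and 155. NFKBIA, which encodes the inhibitor IkB-alpha, was at 77.2 ± 6.37 CPM against 545 ± 9.95 and 189 ± 15.4, with the smallest difference of these 3 from CAL27 (-1.30, SE 0.071, adjusted p = 4.07e-13, edgeR). ICAM1, a leukocyte adhesion receptor, was at 1.01 ± 0.277 CPM against 36.3 ± 1.14 and 54.3 ± 0.715.

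Complement, acute phase and antimicrobial proteins were among the 30 as well. C3, the central complement component, read 1.46, 2.08 and 1.31 CPM in A253, 226 and 192 in SCC25 and 222 and 251 in CAL27, differences of -6.97 (SE 0.127, adjusted p = 2.39e-17, edgeR) and -7.15 (SE 0.127, adjusted p = 2.46e-17). SAA1, an acute phase protein, had 6 counts in A253, 6324 in SCC25 and 1024 in CAL27. SAA1 and SAA2 are near-identical, and SAA2 was lower as well (0.657 CPM against 80.8 and 23.9). S100A8 and S100A9, the subunits of calprotectin, were at 1.40 ± 0.272 and 8.12 ± 0.770 CPM in A253, 126 ± 6.05 and 486 ± 28.1 in SCC25, and 31.8 ± 6.27 and 124 ± 23.8 in CAL27. SLPI, a secreted protease inhibitor of saliva and mucosa, read 4.65, 4.99 and 5.78 CPM in A253, 223 and 213 in SCC25 and 83.1 and 97.4 in CAL27.

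**Figure D2:**
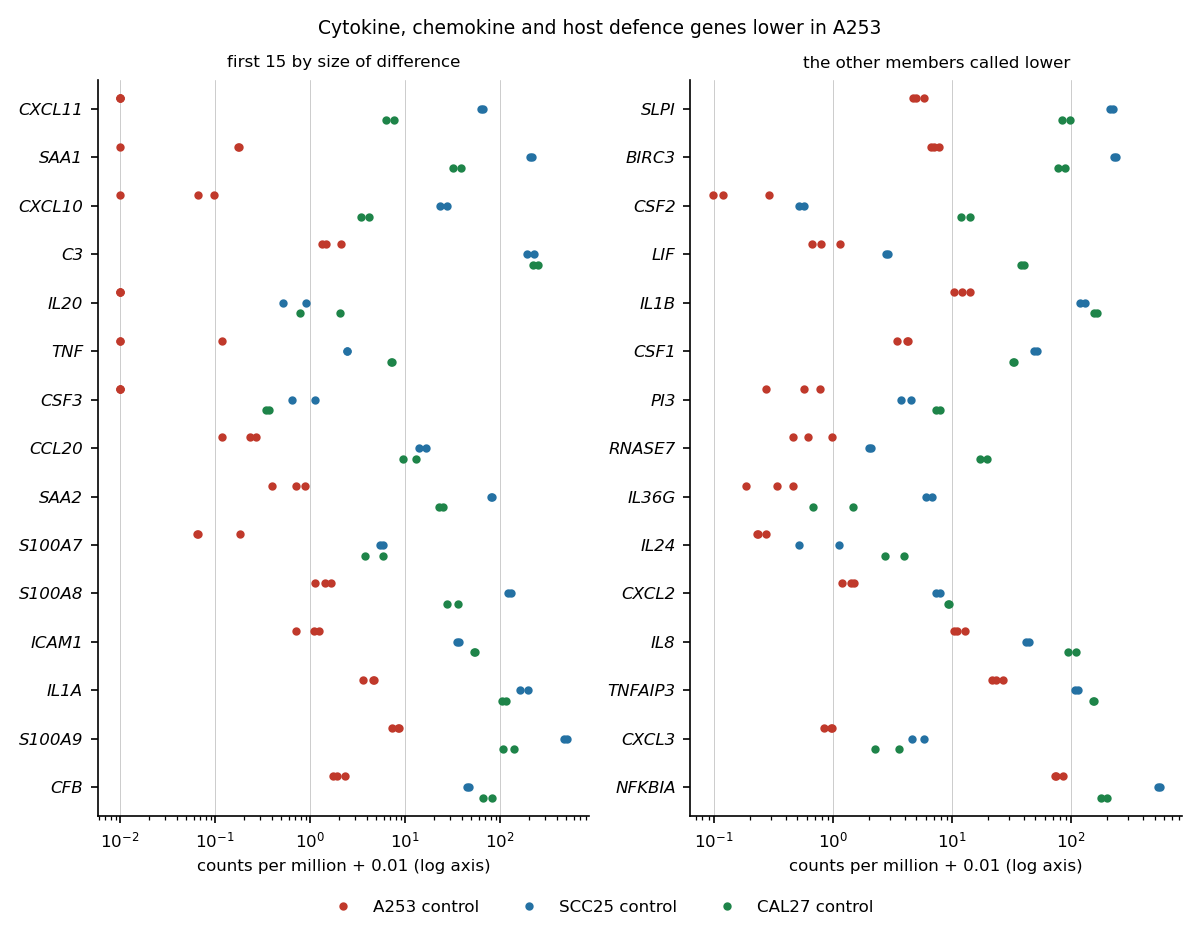
CPM plus 0.01 (log axis) of the 30 cytokine, chemokine and host defence genes called lower in A253, 1 point per control library. Every A253 point lies to the left of every tongue library's point of the same gene, and CXCL11, CSF3 and IL20 are at 0 in A253.

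The promoters of the list were searched for the 7-letter ETS cores CCGGAAG and CAGGAAG on either strand, over 250 bases before to 50 after the RefSeq start (GRCh38.p14). Of the 30 lower genes 22 had an entry, and 5 of these held CAGGAAG (22.7%) and 1 CCGGAAG (4.55%), against 12.6% and 17.1% of the 11766 promoters of genes tested. Over all 785 lower genes with an entry the shares were 15.2% and 14.4%, and over the 1008 higher genes 10.6% and 8.04%. A match of letters is a description and not a binding site. The 2 members whose promoters held 2 matches each are shown, with the matched letters in capitals, read along the gene's strand.
CCL20: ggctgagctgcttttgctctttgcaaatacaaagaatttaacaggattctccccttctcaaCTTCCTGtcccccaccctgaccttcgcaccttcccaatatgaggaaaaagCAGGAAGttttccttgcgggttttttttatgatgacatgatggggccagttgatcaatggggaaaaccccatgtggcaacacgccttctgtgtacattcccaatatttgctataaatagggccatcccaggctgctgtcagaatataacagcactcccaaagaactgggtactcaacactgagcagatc
S100A9: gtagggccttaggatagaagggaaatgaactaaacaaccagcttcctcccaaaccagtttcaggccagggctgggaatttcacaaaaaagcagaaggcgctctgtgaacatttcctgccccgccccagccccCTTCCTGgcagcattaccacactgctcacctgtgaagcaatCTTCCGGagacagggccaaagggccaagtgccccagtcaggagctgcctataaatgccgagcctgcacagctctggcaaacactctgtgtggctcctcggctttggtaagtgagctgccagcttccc
CCL20 lies at chr2:227813592-227813891 on the plus strand, and its 2 matches are CAGGAAG in either orientation. S100A9 lies at chr1:153357604-153357903 on the plus strand, and it holds CAGGAAG and CCGGAAG once each, both as the reverse complement. EHF's own promoter entry held neither.

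Peptide transporter and immunoproteasome genes were lower in A253, while the other genes of peptide trimming and loading on the list, ERAP1, ERAP2, TAPBP, CALR and PDIA3, were not called. Of 31 HLA and antigen presentation genes tested, 11 were lower (35.5%, against 6.71% of all genes) and 1 higher (3.23%, against 9.19%). Their median difference was -1.30. TAP1, a subunit of the peptide transporter, read 32.1, 29.2 and 32.3 CPM in A253, 103 and 107 in SCC25 and 113 and 111 in CAL27. TAP2, its partner, read 32.1, 32.3 and 32.0 CPM against 98.5 and 104, and 174 and 168. The immunoproteasome subunit genes PSMB8, PSMB9 and PSMB10 were lower too, with PSMB9 at 19.3 ± 2.19 CPM against 56.9 ± 4.64 and 55.1 ± 3.33. HLA-C was not called, at 192 ± 13.7 CPM in A253, 691 ± 21.6 in SCC25 and 280 ± 6.18 in CAL27. HLA-B stood at 248 ± 10.4 CPM in A253, 893 ± 9.63 in SCC25 and 97.8 ± 12.3 in CAL27, and so between the tongue lines. B2M, the light chain shared by class I molecules, was at 776 ± 56.0 CPM against 1483 ± 56.6 and 1120 ± 82.2, less than 2-fold lower. HLA genes are highly similar and polymorphic, so counts against 1 reference allele are uncertain.

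Of 8 class II genes tested, CD74 included, 4 were lower in A253, 1 was higher and 3 were not called, all at low levels in A253. Levels were low in SCC25 as well, with HLA-DMA the highest of the 8 there at 1.28 CPM. HLA-DRA was at 0.11 CPM in A253, 0.13 in SCC25 and 32.4 in CAL27. HLA-DQB1 was the gene called higher, at 1.96, 2.09 and 3.33 CPM in A253, 0.0638 and 0 in SCC25 and 0.334 and 0.829 in CAL27. CD74, the invariant chain, was at 0.526 CPM in A253, 0.360 in SCC25 and 93.4 in CAL27 and was not called. Of 45 type I interferon genes, 9 were lower in A253 (20%, against 6.71% of all genes) and 2 higher (4.44%, against 9.19%). Their median difference was -0.74. TRIM22, an antiviral ubiquitin ligase, was at 2.60 ± 0.469 CPM in A253, 22.6 ± 4.52 in SCC25 and 21.9 ± 1.61 in CAL27, and IFI44L was at 1.15 ± 0.399 against 23.3 ± 0.327 and 6.37 ± 1.91. SAMD9, a growth-restraining antiviral factor, went the other way at 530, 584 and 528 CPM against 160 and 155 in SCC25 and 216 and 257 in CAL27, as did IFITM2. ISG15, a core interferon target, was at 55.9 CPM in A253 against 64.3 and 88.9 and was not called.

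**Figure D3:**
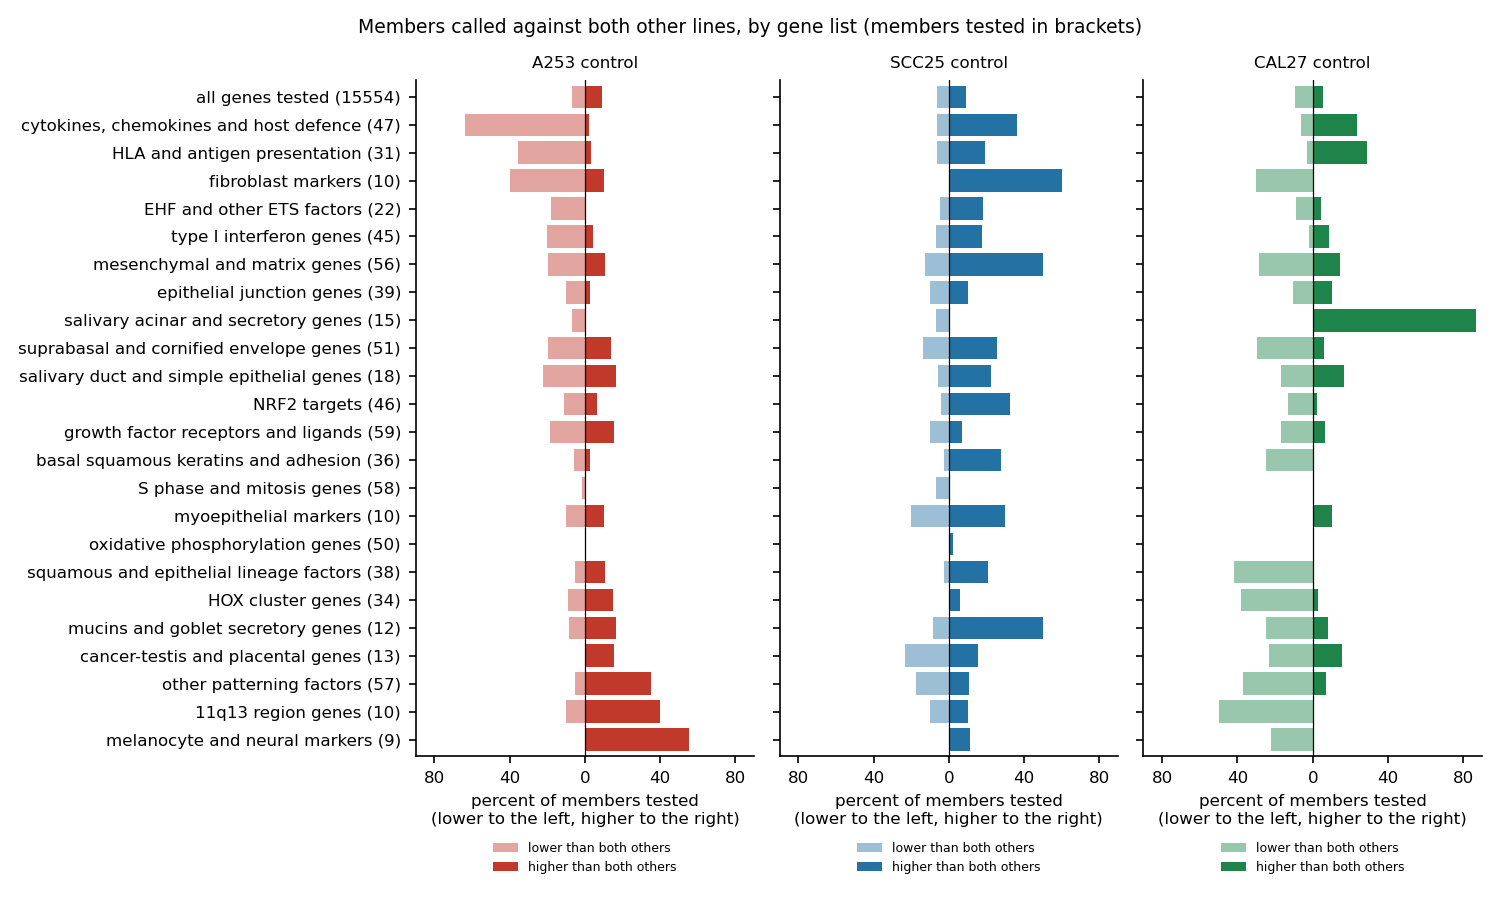
Percent of tested members of each gene list called higher (right) or lower (left) than both other lines, shown for A253, SCC25 and CAL27 controls, with all 15554 genes in the top row. The A253 panel shows 63.8% lower for cytokine and defence genes, and 35.1% higher for patterning factors outside the HOX clusters, behind the shorter lists of melanocyte and neural markers (55.6%) and 11q13 genes (40%).

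Developmental patterning factors outside the HOX clusters had more high than low calls in A253. Of 57 tested, 20 were higher in A253 than in both tongue lines (35.1%, against 9.19% of all genes) and 3 lower (5.26%). The list held 67 genes and was chosen with earlier results of these data known. A member with counts in A253 alone also entered the test, so the shares describe the 57 genes and not the list. The median difference was 1.47, or 1.31 with every group total set to at least 3 counts. For the same list 6 genes were highest in SCC25 and 4 in CAL27, and 21 were lowest in CAL27, so CAL27 contributed to the contrast. Most of these factors were at a few CPM, and 14 to 22 were called higher under the alternatives tried.

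The highest levels were those of ZIC1, a neural crest and neural plate factor, at 35.1, 35.5 and 34.8 CPM in A253, 8.35 and 7.80 in SCC25 and no count in CAL27. MEIS2, a HOX cofactor, was at 28.0 CPM against 9.07 and 11.1, and MSX2, a BMP target of the dental and skull mesenchyme, read 22.2, 18.8 and 19.7 CPM against 4.21 and 4.46, and 0.891 and 1.92. BARX1, a factor of the first branchial arch and stomach, read 13.4, 12.6 and 13.6 CPM in A253, 0.510 and 0.557 in SCC25 and none in CAL27. TBX15 read 15.8, 14.6 and 13.3 CPM against 13 counts in SCC25 and 1 in CAL27. Each of these A253 levels stood above all 4 tongue libraries.

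Single members came from developmental programmes of different organs. NKX2-1, a thyroid and lung factor, read 7.28, 7.46 and 7.53 CPM in A253, 0.383 and 0.209 in SCC25 and 0.780 and 0.466 in CAL27. PAX3, a paired factor of neural crest and muscle precursors, had 145 counts in A253, none in SCC25 and 4 in CAL27. Its relative PAX7, among the 12 genes with the largest difference, had 597 counts in A253 (13.1, 12.9 and 11.2 CPM) and none in either tongue line, at least 126-fold above SCC25 and 118-fold above CAL27 (bound at 3 counts over the group). The 3 factors lower in A253 were IRX1, EYA4 and LHX8. EYA4, a transcription cofactor, had 1 count in A253, 84 in SCC25 and 297 in CAL27.

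**Figure D4:**
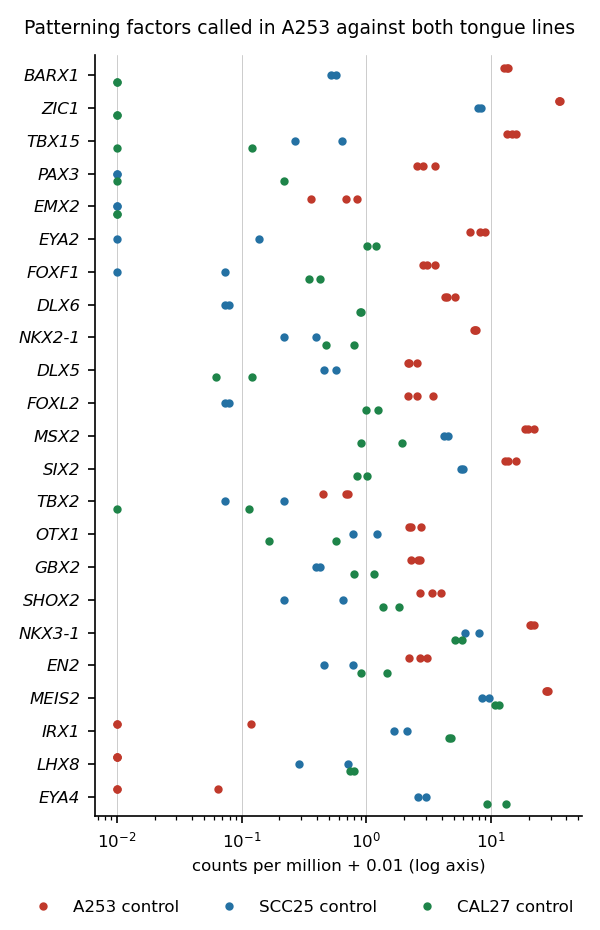
CPM plus 0.01 (log axis) of the 23 patterning factors called against both tongue lines, 1 point per control library, ordered by difference. The top 20 are highest in the 3 A253 libraries and the bottom 3, IRX1, LHX8 and EYA4, are lowest there.

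HOX cluster genes mark position along the body axis. Of 34 tested, 5 were higher (14.7%, against 9.19% of all genes) and 3 lower (8.82%, against 6.71%). HOXA13, normally a gene of the most posterior structures, read 15.3, 17.1 and 17.0 CPM in A253, 0.957 and 1.04 in SCC25 and 2.23 and 0.985 in CAL27. The 3 lower genes were neighbours in 1 cluster, HOXD9, HOXD10 and HOXD11, with HOXD10 at 4.98 ± 0.634 CPM in A253 against 41.2 ± 0.955 and 23.2 ± 0.181.

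Ligands and receptors that act in the same developmental settings were also compared. Of 59 growth factor receptors and ligands, 9 were higher (15.3%, against 9.19% of all genes) and 11 lower (18.6%, against 6.71%). The bone morphogenetic proteins were higher together: BMP4 read 34.3, 32.3 and 33.7 CPM in A253, 0.446 and 0.139 in SCC25 and 2.45 and 2.33 in CAL27. BMP7 was at 74.3 ± 1.72 CPM against 22.6 ± 0.425 and 6.97 ± 0.546, and BMP2 at 38.2 CPM against 13.2 and 9.56. LIFR, the receptor of the ligand encoded by LIF, was higher at 162 ± 9.48 CPM against 14.9 ± 0.248 and 36.2 ± 1.79, while LIF was lower at 0.860 CPM against 2.83 and 38.9. The EGF receptor ligands HBEGF and EGF were lower, with HBEGF at 1.79, 2.30 and 1.93 CPM against 13.6 and 15.5, and 14.4 and 15.5. EGFR itself read 305, 455 and 289 CPM in A253, 500 and 424 in SCC25 and 452 and 408 in CAL27. It did not pass the test (adjusted p = 0.199 and 0.327, edgeR), and the second A253 library stood apart from the other A253 libraries. SFRP1, a secreted Wnt antagonist, had no count in A253, 8 in CAL27 and 16482 in SCC25.

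Of 9 melanocyte and neural markers tested of 20 listed, 5 were higher in A253 (55.6%, against 9.19% of all genes) and none lower. The 5 were CHGB, NCAM1, NES, ENO2 and MITF. Only listed markers with counts in some line were tested. The defining pigment and neuronal markers PMEL, MLANA and SYP were at 1.81, 2.06 and 0.751 CPM in A253 and were not called. NES, an intermediate filament of progenitor cells, was the most abundant of the 5 at 63.1 ± 5.79 CPM against 24.6 ± 0.0781 and 0.834 ± 0.0806. INA, which encodes the neuronal filament alpha-internexin, had the largest difference of all genes called whose average log2 CPM reached 2. It had 4503 counts in A253 (95.0, 98.9 and 88.0 CPM) and none in the 4 tongue libraries, at least 949-fold above SCC25 and 893-fold above CAL27. Others of the 12 largest were ALDH1A2, a retinoic acid synthesis enzyme, at 68.3, 62.1 and 65.5 CPM against 8 counts in SCC25 and none in CAL27, and the cation channel TRPC6. SOSTDC1, an antagonist of BMP and Wnt signals in tooth and skin, had 586 counts in A253 and none in the tongue lines, and FOXJ1, the master factor of motile cilia, had 560 and none. The remaining ones were ZNF354C, DMRTA2, DPY19L2P1, SPESP1, CACNA1B and VIT.

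Mesenchymal and matrix genes did not move as a block. Of 56 tested, 6 were higher (10.7%, against 9.19% of all genes), 11 lower (19.6%, against 6.71%) and 14 stood between the tongue lines. VIM, the mesenchymal intermediate filament, was one of the last, at 52.5, 46.7 and 46.0 CPM in A253, 238 and 294 in SCC25 and 7.91 and 6.68 in CAL27. CDH2, which encodes N-cadherin, had 8 counts in the 3 A253 libraries, and read 74.0 and 76.3 CPM in SCC25 and 49.4 and 50.4 in CAL27. FN1, fibronectin, read 2.30, 2.36 and 1.75 CPM in A253, 873 and 866 in SCC25 and 70.8 and 63.5 in CAL27, differences of -8.63 (SE 0.096, adjusted p = 1.88e-24, edgeR) and -4.93 (SE 0.105, adjusted p = 4.42e-20). THBS1, the matrix glycoprotein thrombospondin, was at 207 ± 39.9 CPM against 2193 ± 65.5 and 4708 ± 532.

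Other matrix genes were higher in A253. SPARC, a collagen-binding matrix protein, read 1153, 1095 and 1116 CPM in A253, 0.702 and 0.348 in SCC25 and 379 and 395 in CAL27. FBN2, which encodes the microfibril protein fibrillin, read 485, 670 and 432 CPM against 25.8 and 26.3, and 70.6 and 60.6. TWIST1, a mesenchymal transcription factor, was at 18.9 CPM against 8.09 and 5.60, and LOXL2, a collagen crosslinking enzyme, at 147 CPM against 9.83 and 60.1. Of 10 fibroblast markers tested of 13 listed, 1 was higher (10.0%, against 9.19% of all genes) and 4 lower (40%, against 6.71%). The lower ones were C1R, C1S, LUM and COL1A2. Of 5 leukocyte markers tested of 18 listed, CD8A was higher (20%), at 1.30 CPM against 0.302 and 0.185. Of 7 endothelial markers tested of 12 listed, TEK and EGFL7 were higher (28.6%), while PECAM1 was at 1.13, 3.90 and 1.31 CPM. Some members, TEK and CD8A among them, entered the test through A253 alone, so these shares describe the genes tested and not the lists.

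Few genes of the respiratory chain and of cell division were called. Of 50 oxidative phosphorylation genes none was called, with a median of -0.31. Of 58 S phase and mitosis genes 1 was lower (1.72%), TYMS, the thymidylate synthase, at 7.66 ± 1.13 CPM against 15.6 ± 0.693 and 28.2 ± 2.05. Its difference from SCC25 was -1.01, at the edge of the minimum, and the call was lost with other size factors, with the replicate block and with DESeq2. Of 46 targets of the antioxidant factor NRF2, 3 were higher (6.52%) and 5 lower (10.9%). AKR1B10, an aldo-keto reductase, read 136, 136 and 148 CPM in A253, 5.10 and 6.13 in SCC25 and 2.34 and 2.12 in CAL27. GCLM, a subunit of the glutathione synthesis enzyme, was at 19.6 ± 0.332 CPM against 310 ± 12.8 and 65.9 ± 2.42.

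Genes of regions often altered in head and neck carcinoma were read as transcript levels, and genomic copy number was not measured. In the amplified region of chromosome arm 11q13, 4 of 10 genes were higher in A253 (40%, against 9.19% of all genes). Of the same 10 genes, 1 was lower in A253 (10.0%, against 6.71%) and 5 were lowest in CAL27. MYEOV read 151, 141 and 146 CPM in A253, 2 counts in both SCC25 libraries together and 7.02 and 5.91 CPM in CAL27. Its neighbour CCND1, which encodes cyclin D1, did not share that pattern, at 789, 776 and 724 CPM against 719 and 692, and 519 and 460. CDKN2A, the tumour suppressor of 9p21, was 1 of 8 genes called higher there (12.5%). It read 18.6, 15.7 and 18.5 CPM in A253, 0.255 and 0.348 in SCC25 and 7.02 and 8.39 in CAL27, and the call was lost when tested against 2-fold itself. Of 35 genes mutated in head and neck carcinoma 2 were higher (5.71%), FGFR2 and PDGFRA, and 1 lower (2.86%), CCND3. Neither higher call held when tested against 2-fold itself, and leaving out 1 library left 1 to 2 of them. Of 13 cancer-testis and placental genes tested of 54 listed 2 were higher (15.4%), PRAME and ALPP, and none lower.

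Of the 12 most reduced genes, 11 were replication-dependent histone genes of the HIST1 cluster, whose products package newly made DNA. In the gene order of the table, the stretch from HIST1H1C to HIST1H1D held 17 HIST1 genes and HFE, the haemochromatosis gene that lies among them. All 16 of the histone genes tested there were lower in A253. The 17 genes had 19 counts in the 3 A253 libraries together, 110752 in SCC25 and 120263 in CAL27, and 10 of the 17 had none. HIST1H1E, a linker histone, had no count in A253, 13905 in SCC25 and 16333 in CAL27, at least 7331-fold and 9148-fold lower. HFE also had no count in A253 and stood at 21.3 CPM in SCC25 and 14.8 CPM in CAL27. HIST1H4C, HIST1H1D, HIST1H2AE and HIST1H2AC likewise had no count.

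The step was abrupt on both sides. Of the 39 HIST1 genes outside that stretch 35 were tested, and none was lower in A253, 3 were higher and their median difference was 0.46. HIST1H3C, the row just before, was at 260 CPM in A253, 177 in SCC25 and 201 in CAL27, and HIST1H4F, the row after, was at 262, 62.3 and 0.0816 CPM. The 3 A253 libraries with induced EHF, which the comparison did not use, held 20 counts over the same 17 genes. Histone genes are close copies of one another, and how the counting treated reads shared between them is not given in the sources used here. HFE, which is no histone, is free of that limit.

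**Figure D5:**
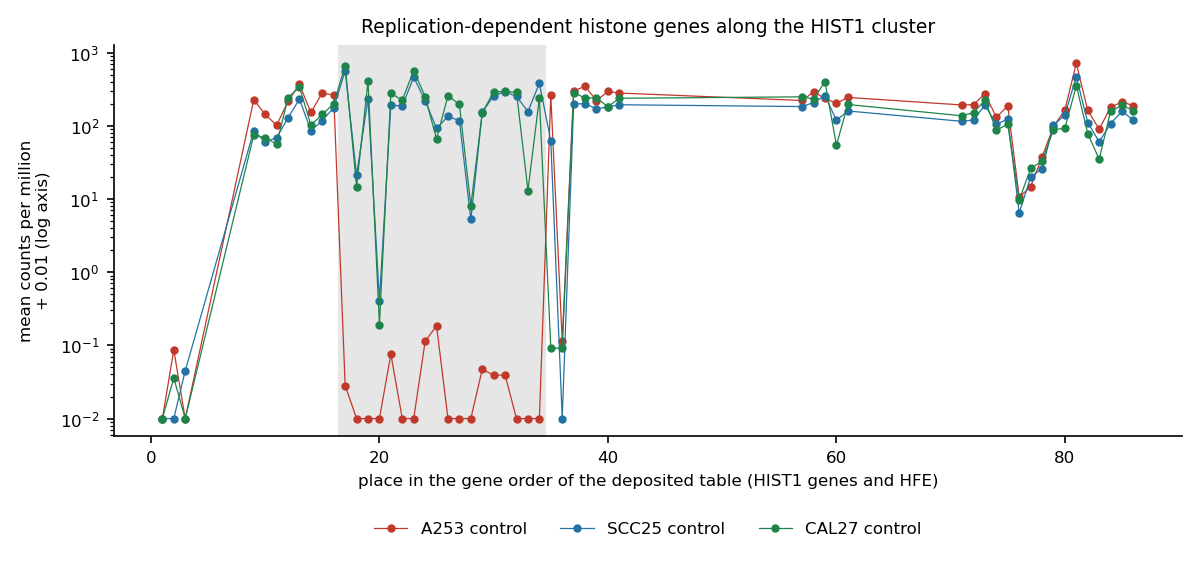
Mean CPM plus 0.01 (log axis) of HIST1 genes and HFE in the 3 lines, in the gene order of the deposited table (horizontal axis, place in that order). Inside the grey stretch, from HIST1H1C to HIST1H1D, A253 lies below 0.2 CPM, while none of the HIST1 genes tested outside it was lower in A253 and 3 were higher.

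Runs of this kind were counted over the whole table. Only genes with 1 CPM or more in both other lines were read, and rows of other genes between them were passed over. A run was at least 3 consecutive genes so read with at most 0.2 CPM in the line itself. The rows of a run need not adjoin: KLHL4 to SRPX2 spanned 15 rows, LINC00085 to ZNF432 12 and BACE2 to ABCG1 17. A253 had 7 such runs, SCC25 had 1 and CAL27 none. The other runs of A253 held 3 or 4 genes each. ARMCX1 to ARMCX3 had no count over 3 genes that reached 49.2 CPM in SCC25. The next gene with 1 CPM or more in both tongue lines, ARMCX5, was at 26.5 CPM in A253. KLHL4 to SRPX2 held 4 genes with 6 counts. Another 3 runs, of zinc finger genes apart from the non-coding LINC00085, had their ends at ZNF563 and ZNF443, LINC00085 and ZNF432, and ZNF530 and ZNF211. The SCC25 run reached from BACE2 to ABCG1, with 8 genes and 15 counts. Single genes were about as often empty in CAL27 as in A253. Of 12362 genes at 1 CPM or more in both tongue lines 136 were at most 0.2 CPM in A253, and of 12523 such genes 156 were in CAL27. TMX3, a thioredoxin-like membrane protein and the only non-histone among the 12 most reduced genes, had no count in A253, 3531 in SCC25 and 2178 in CAL27.

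Libraries with altered EHF gave the same genes outside the comparison, scaled together with the controls. EHF was at 84.1 ± 4.48 CPM in the A253 controls and at 750, 694 and 613 CPM in the A253 overexpression libraries, above the SCC25 controls (475 and 433 CPM on this scale) and below CAL27. Of the 67 genes called higher in A253 that the naming rule picked, 65 were above every tongue control library in all 3 overexpression libraries. The exceptions were KRT1 and ALPP. Of the 70 called lower that it picked, 68 were below every tongue control library in all 3, the exceptions being GDF15 and EHF itself. The naming rule picked genes with large differences. Over all called genes that passed the filter in the joint scaling, 1389 of 1425 higher genes (97.5%) and 1006 of 1043 lower genes (96.5%) kept to the A253 side in all 3. The part of EHF in the differences between the lines was not tested. The overexpression libraries share the line, the table and the medium with the A253 controls.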

How the data were processed

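TruSeq RNA libraries, made from total RNA enriched for mRNA, were sequenced per the labels' protocols. Per the submitters' processing notes the tools were TopHat2 2.1.1, Bowtie 1.1.1, featureCounts 1.5.3 and DESeq2 1.12.4 on hg19; filters, strand setting and the treatment of multiply mapped reads are not given in the sources used here. The deposited values used were raw counts per gene, in 1 table per line, and the authors' TPM for A253 and CAL27, used only in an alternative; the SCC25 TPM table was not used.

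The 3 count tables (23710 rows each) were joined by row position with names from the A253 table. The CAL27 names differed in 696 rows; for 17444 of 17444 rows the gene length implied by counts and TPM matched between A253 and CAL27 within 0.01 (log2). In 28 rows the name had been turned into a date. Of the count columns, 4 from CAL27 knockdown cells matched no label and were not used, so the planned fit of 16 RNA libraries held 12.

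Counts were tested with edgeR 4.0.16 (TMM, filterByExpr, robust quasi-likelihood, 1 group per line) in R 4.3.3. DESeq2 1.42.0 and limma 3.58.1 served as alternatives. Medians of gene lists and shares carry no test. The procedure was tested on simulated data. Bounds and ratios at up to 3 counts cover counting error only. Replicate numbers do not pair the libraries (correlation of deviations -0.091 to 0.008). TMM factors were 0.967 to 1.03. Named genes were EHF, the 12 largest and 12 smallest differences among genes called (average log2 CPM of at least 2, Y-linked genes and XIST left out), up to 4 called genes per list and direction, and line markers. Further genes were named after their values were seen, to show a list's other members, genes between the lines or the ends of a run. The comparison, the 27 gene lists and this rule were chosen with earlier results of these data known. Runs of empty genes were defined after the values were seen, and the RefSeq gene table (GRCh38.p14) served for neighbour order.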

Additional observations from a re-analysis of the deposited data

Results flagged for a closer look

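For 6 genes A253 stood above one tongue line and below the other, where the effect of the same contrast differed between the tongue lines. They were those with the largest value of the smaller of the 2 differences, among the 349 genes of this kind whose average log2 CPM reached 2. The difference in level between the tongue lines was taken as log2 of SCC25 over CAL27 in the edgeR fit. It was 11.90 for CCDC3, 10.25 for BCHE, 11.98 for ANPEP, 10.91 for TNFRSF8, 8.48 for SLCO2A1 and 7.12 for RCN3. All 6 were highest in SCC25 and lowest in CAL27. CCDC3, a secreted protein gene, was at 4.74 ± 0.326 CPM in A253 (SD, n = 3), 166 ± 5.52 in SCC25 (n = 2) and had 1 count in CAL27. ANPEP and TNFRSF8 had 7 counts each in A253 and none in CAL27, so their fitted values depend on the prior count of the fit and are no bound. Groups of 2 or 3 libraries were too small for a check of single outlying libraries gene by gene. Across genes, the second A253 library stood furthest from its replicates.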

How the results depend on the processing

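The counts of genes higher and lower in A253 than in both tongue lines kept within 1.5 times their main values under all 15 alternatives tried for each. They ranged from 969 to 1574 higher and from 703 to 1106 lower, with the lowest values from a test against 2-fold itself (glmTreat). That test left 157 of the 349 genes between the tongue lines and 3279 of the 11477 genes past the threshold against the tongue mean, and fitting the tongue libraries as 1 group left 5508. Leaving out 1 library gave 1402 to 1512 higher, 976 to 1050 lower, 302 to 346 between and 10924 to 11427 against the mean. With the replicate number as a block, though the numbers do not pair the libraries, the counts were 1410, 1029, 329 and 11000. Leaving out genes with at most 3 counts in a group, chosen after seeing the data, gave 1043 higher and 845 lower. On the authors' TPM (limma), 2272 genes were above CAL27 and 1192 below, against 2897 and 2149. The count of low cytokine and defence genes ranged from 28 to 31, and of high patterning factors from 14 to 22. Of 145 genes named by rule, none changed direction, and glmTreat lost 24 calls, the fit of the tongue libraries as 1 group 21 and DESeq2 7. Scaling by library totals moved the median of all genes by 0.07. The salivary site was represented by 1 line in every setting. Genes with few counts in a line, among them many of the patterning factors, are those whose size depth limits most.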
